A study of Mus musculus with 167 samples.

Results

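The withdrawal of phenobarbital was examined in the livers of wild-type mice. The 19 animals used, of 167 arrays in the whole series, are male C57BL/6 mice, aged 9 to 11 weeks per the labels. The labels give this same range for day 91 and day 119, so it cannot be the age at killing on both days. The animals form 4 groups. Treated wild-type mice drank 0.05% (wt/vol) phenobarbital for 13 weeks and were killed on day 91 (5 animals). Other treated wild-type mice were killed on day 119, after 4 weeks of recovery without the drug (5 animals). Untreated wild-type controls were killed on day 91 (4 animals) and on day 119 (5 animals). The rule that picks these animals uses genotype, treatment and day, and no measured value. The same days were measured in mice carrying human CAR and PXR in place of the mouse receptors (18 arrays) and in mice lacking both receptors (19 arrays), which serve here only for comparison. RNA of powdered whole liver was hybridised to Affymetrix arrays, with 1 array per animal. No sample's own label states a dose or that the drug had been stopped: 0.05% comes from the treatment text, and the recovery period from the design text.

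Phenobarbital is a sedative and anticonvulsant that makes the rodent liver grow and, given for long, promotes liver tumours. It acts mainly through the constitutive androstane receptor (CAR, gene Nr1i3). The drug releases CAR from its hold in the cytoplasm, and the receptor then binds DNA with the retinoid X receptor and switches on genes of drug metabolism. The pregnane X receptor (PXR, gene Nr1i2) binds many foreign compounds directly and shares part of its targets with CAR. Cyp2b10, a cytochrome P450, is the usual reporter of CAR activity in mouse liver.

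The quantity asked for each gene was the withdrawal difference: treated day 119 minus treated day 91, less the same day difference in the controls. It is also the phenobarbital effect (treated minus control) on day 119 minus that on day 91. Values are log2 expression, and a log2 difference of 1 is a 2-fold change. A gene is said to have risen or fallen where limma's moderated test gave a Benjamini-Hochberg adjusted p under 0.05 over all 12622 genes tested. On this measure 84 genes changed, or 0.666% of those tested. Of them 66 fell (0.523%) and 18 rose (0.143%). Those shares of all tested genes are to be set beside each list count below. The median withdrawal difference of all tested genes was 0.02. The falls were large and the rises small: 32 of the falls were at least 2-fold and 13 at least 4-fold, while no rise reached 2-fold. Of 98 tested genes in 8 lists of drug metabolism and transport, 27 fell and 0 rose (27.6% falling, median of all 98 -0.19), and these made up 40.9% of the 66 falls. A pair of imprinted noncoding RNAs fell with them. The count of 84 was 55 when control animal 1022 of day 91 was left out, the lowest among fits that each left out 1 animal.

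The liver label was checked against 12 hepatocyte marker genes, whose mean log2 level lay between 14.07 and 14.15 in the 4 groups. Alb, encoding albumin, averaged 14.86 ± 0.02 (SD, n = 4) in day 91 controls and 14.86 ± 0.02 (SD, n = 5) in treated mice of day 119. Markers of pancreatic acinar cells, the digestive enzyme producers of a neighbouring organ, were present in some livers. The mean level of 11 acinar genes was 11.02 in control animal 1026 and 10.04 in control 1028, both of day 119. It was 9.06 in treated animal 2025 of day 91 and 8.82 in treated animal 2027 of day 119. The other 15 animals lay between 5.11 and 7.58. All 11 acinar genes had a withdrawal difference below 0, with a median of -1.66 (range -2.46 to -0.69), and 0 of 11 passed the limma test (1 at an unadjusted p under 0.05). The sign came from the controls, whose group mean of the 11 genes was 5.89 on day 91 and 7.55 on day 119. In treated mice that mean was 6.19 on day 91 and 6.27 on day 119. Adding the acinar mean to the model gave 81 changed genes, 79 of them shared with the original 84. Leaving out those 4 animals, an alternative chosen after seeing the data, gave 45, of which 44 were shared. In bulk liver a smaller number of cells of a type and less RNA per cell cannot be told apart.

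The 3 Cyp2b genes measured here stand side by side on chromosome 7, and their upstream sequences are shown because their decline anchors the result and because a pair of them is nearly identical. The sequences are the 250 bases before each annotated start, taken from RefSeq (GRCm38.p6, plus strand, 5′ to 3′), at chr7:25897408-25897657 for Cyp2b10, chr7:26061245-26061494 for Cyp2b13 and chr7:26173159-26173408 for Cyp2b9. Capitals mark a nuclear receptor half-site, searched as AGGTCA or AGTTCA on both strands.
Cyp2b10: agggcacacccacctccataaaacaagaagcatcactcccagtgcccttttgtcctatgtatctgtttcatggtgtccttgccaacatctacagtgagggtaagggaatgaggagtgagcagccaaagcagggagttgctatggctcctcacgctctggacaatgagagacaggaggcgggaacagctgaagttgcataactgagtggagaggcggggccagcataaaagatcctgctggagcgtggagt
Cyp2b13: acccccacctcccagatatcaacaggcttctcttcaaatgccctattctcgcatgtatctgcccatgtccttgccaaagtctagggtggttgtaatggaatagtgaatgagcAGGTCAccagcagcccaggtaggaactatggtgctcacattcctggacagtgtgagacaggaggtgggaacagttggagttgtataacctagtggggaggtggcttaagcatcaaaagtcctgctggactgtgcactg
Cyp2b9: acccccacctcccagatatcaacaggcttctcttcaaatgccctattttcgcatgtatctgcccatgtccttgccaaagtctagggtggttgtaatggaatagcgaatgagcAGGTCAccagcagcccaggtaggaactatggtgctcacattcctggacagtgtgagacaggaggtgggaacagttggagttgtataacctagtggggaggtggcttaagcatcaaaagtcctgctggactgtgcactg
The windows of Cyp2b13 and Cyp2b9 were identical at 248 positions (99.2%). Cyp2b10 shared 177 positions with either (68.3% of an alignment with gaps). The half-site occurred in 1 place in Cyp2b13 and in Cyp2b9 and nowhere in this window of Cyp2b10. Among the responder genes that fell, a set defined further on, 5 of 23 with a window held it (21.7%), against 2306 of 10155 tested genes (22.7%). A match is a match of letters only, and windows of this length leave out distant enhancers.

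All 3 Cyp2b genes fell. Cyp2b10 stood at 7.47, 6.95, 6.58 and 7.04 in the day 91 controls and at 12.53, 12.89, 12.65, 12.79 and 12.88 in the mice on drug. On day 119 the controls read 7.16, 7.39, 6.65, 6.88 and 7.08, and the formerly treated mice read 7.05, 7.15, 7.35, 7.61 and 7.50. Every animal on the drug was far above every other animal, and after withdrawal treated and control animals overlapped. The withdrawal difference of Cyp2b10 was -5.43 ± 0.28 (SE), or 43.1-fold lower, with an adjusted p of 2.02e-37 from limma. Its remaining day 119 effect was 0.30, with a 95% interval from -0.07 to 0.68. The other probe sets of Cyp2b10 gave withdrawal differences of -5.42 and -5.66.

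Cyp2b13, a P450 normally higher in female liver, read 10.06, 9.79, 9.82, 9.44 and 8.96 in mice on drug and 6.16, 6.63, 5.38, 7.46 and 5.29 after withdrawal. The day 119 controls stood at 5.20, 5.20, 4.75, 5.11 and 5.00. The treated animals thus spread widely after withdrawal, and the lowest of them was still above the highest control of that day. Control 1022 of day 91 read 5.41, above the formerly treated animals 2028 and 2030. Cyp2b13 fell by 3.48 ± 0.29 (SE), limma adjusted p = 4.59e-19, from a day 91 effect of 4.61 to a day 119 effect of 1.13. That remainder passed the limma test (adjusted p = 0.000748). This call was lost in 1 of 19 fits without 1 animal: without animal 2029 the effect was 0.81 and the adjusted p 0.166. Without the 4 animals with high acinar markers the effect was 0.97 and the adjusted p 0.304. Fitted on wild-type arrays only the adjusted p was 0.271, and on the 4 compared groups 0.577.

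Cyp2b9, its near-identical neighbour and also higher in female liver, read 10.28, 10.29, 10.29, 9.81 and 9.93 on drug. It read 7.46, 7.67, 7.49, 8.71 and 7.29 after withdrawal, against 7.22, 7.50, 5.72, 7.17 and 7.39 in controls of that day. The groups of day 119 overlapped, and animal 2029 was again the highest. Cyp2b9 fell by 2.63 ± 0.54 (SE), with a limma adjusted p of 0.00118, and its day 119 effect was 0.72 (95% interval -0.01 to 1.46). How far the probes of either gene also detect the other was not tested.

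**Figure D1:**
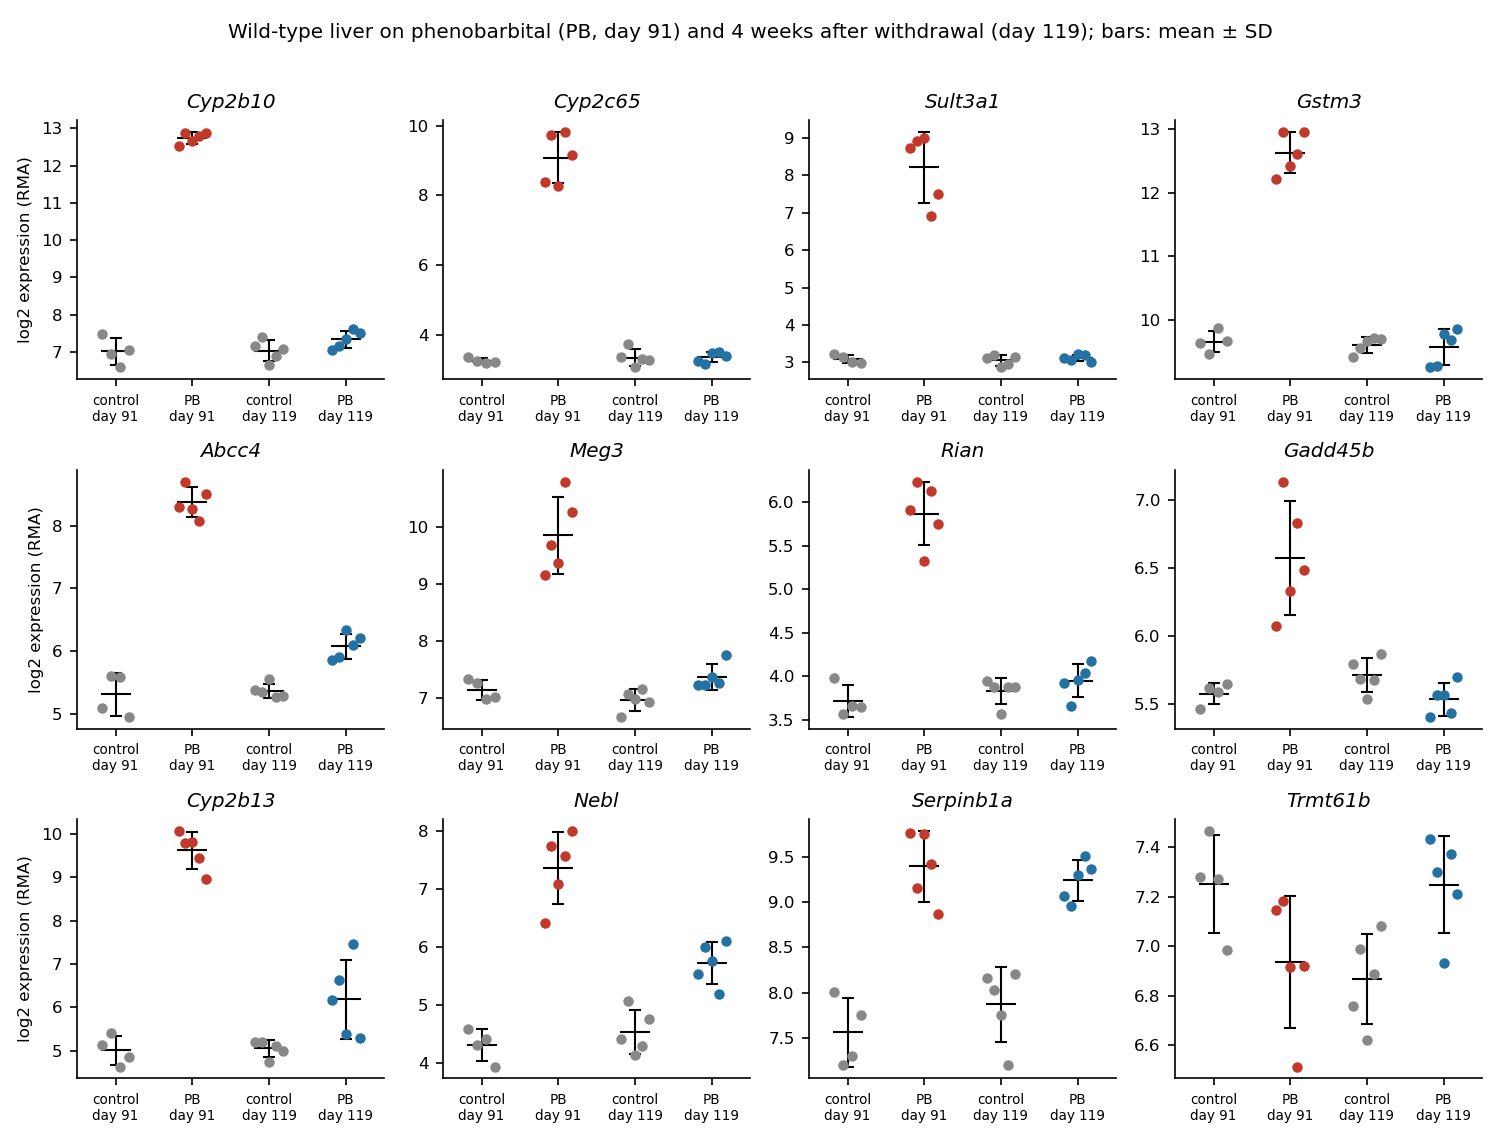
Log2 expression (RMA values, vertical axis) of 12 genes in each wild-type animal of the 4 groups, with points for animals and bars for mean ± SD. Cyp2b10 lies above 12 in all 5 mice on drug and below 8 in all others, whereas Serpinb1a stays between 8.96 and 9.51 in the 5 mice off the drug, above the highest control of 8.21. Each panel has its own vertical axis, which does not start at 0.

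Of 12 genes tested in the Cyp2c and Cyp2a families, which oxidise drugs, steroids and fatty acids, 6 fell and 0 rose, with a median of -0.57. Cyp2c65 had the largest log2 difference among the genes that fell. It read 8.40, 9.74, 8.27, 9.82 and 9.17 on drug, and 3.24, 3.16, 3.47, 3.49 and 3.40 after withdrawal. Controls stood at 3.36, 3.23, 3.19 and 3.22 on day 91 and at 3.34, 3.73, 3.06, 3.29 and 3.26 on day 119. All animals off the drug were therefore below the array medians of 5.16 to 5.23 and overlapped with controls. The withdrawal difference was -5.82 ± 0.23 (SE) on the log2 scale of the deposited values (limma adjusted p = 3.66e-48). The probe set exceeded the array median on 47 of 167 arrays, and its values off the drug may lie at the floor of the measurement, so no fold is given. Its day 119 effect was 0.02, with a 95% interval from -0.30 to 0.33.

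Cyp2c55, which oxidises arachidonic and linoleic acid, fell by 3.62 ± 0.23 (SE). It read 11.76 to 12.56 on drug and 8.29 to 8.63 afterwards, against 8.07 to 8.63 in the controls of day 119. The groups off drug overlapped. Abundant hepatic members moved less: Cyp2c54 fell by 1.32, Cyp2c37 by 1.24, Cyp2c50 by 0.68 and Cyp2c29 by 0.58. Cyp2c29 read 13.84 to 13.98 on drug and 13.30 to 13.70 after withdrawal, with no overlap between those groups. Such levels are near the top of the measured range of 2.11 to 15.07, where array signals are compressed. Cyp3a11, the main drug-oxidising P450 of mouse liver and a PXR target, had a withdrawal difference of -0.12 with a limma adjusted p of 0.353. It read 14.36 to 14.40 on drug and 14.21 to 14.35 after withdrawal, with no overlap. Without subtracting the control day difference it passed (-0.12, adjusted p = 0.0317). None of the 4 Cyp3a genes tested passed (3 were lower at an unadjusted p under 0.05), and their median was -0.23.

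Glutathione transferases, which attach glutathione to reactive compounds, fell in 8 of 19 tested cases and rose in 0, with a median of -0.18 over all 19. The mu class led. Gstm3 read 12.22, 12.95, 12.42, 12.61 and 12.96 on drug and 9.25, 9.28, 9.77, 9.67 and 9.86 after withdrawal. Day 119 controls read 9.41, 9.55, 9.66, 9.72 and 9.69, inside the range of the formerly treated mice. It fell by 3.02 ± 0.26 (SE), or 8.11-fold, from a day 91 effect of 2.98. Gstm2 fell by 1.65, Gstm1 by 1.12, Gstm4 by 0.72 and Gstm6 by 0.67. Outside that class Gstt3 fell by 1.27, Gsta4 by 0.57 and Gstt1 by 0.41. Mu-class genes are close copies, and how far their probes detect one another was not tested.

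Among sulfotransferases and glucuronosyltransferases, which make compounds water-soluble, 5 of 18 fell and 0 rose (median -0.17). Sult3a1, a sulfotransferase higher in female liver, went from 3.22, 3.13, 3.002 and 2.98 in day 91 controls to 8.73, 8.93, 9.0, 6.92 and 7.49 on drug. After withdrawal it stood at 3.10, 3.05, 3.22, 3.19 and 3.02, against 3.12, 3.19, 2.87, 2.94 and 3.15 in controls. The treated animals spread widely while on drug and were tightly grouped among the controls after it. Sult3a1 fell by 5.07 ± 0.44 (SE), with a limma adjusted p of 2.21e-18. It exceeded the array median on 27 of 167 arrays, and all its values off the drug were below that median, so no fold is given. Sult1e1, which sulfates oestrogens, fell by 1.92 ± 0.31 (SE), from 4.35, 5.64, 5.04, 6.07 and 7.16 on drug to 4.17, 3.60, 3.64, 4.00 and 4.03. It exceeded the array median on 8 of 167 arrays. Fitted on the 4 compared groups alone its adjusted p was 0.0684. Ugt2b34 fell by 0.60 and Ugt2b35 by 0.51. Sult1c2 fell by 0.96, a call lost without control animal 1021 (-0.89, adjusted p = 0.0691) or 1027 (-0.85, adjusted p = 0.0807).

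Abcc4, an efflux pump of the basolateral hepatocyte membrane for bile acids and conjugates, was the only one of 18 tested genes in the hepatic transporter list to fall (median of all 18, 0.03). Transporter genes outside that list also fell, among them Rhbg, Slc13a3 and Slc22a26, described below. Abcc4 read 8.29, 8.70, 8.26, 8.08 and 8.51 on drug and 5.86, 5.91, 6.33, 6.10 and 6.21 after withdrawal. Controls of day 119 stood at 5.38, 5.35, 5.55, 5.27 and 5.29. All 5 animals off drug thus lay between the groups, below every animal on drug and above every control. Abcc4 fell by 2.35 ± 0.25 (SE), or 5.08-fold (limma adjusted p = 3.79e-13). The day 119 effect of 0.71 (95% interval 0.37 to 1.05) had an adjusted p of 0.138, which was 0.0151 on wild-type arrays only and 0.0202 with array weights. Abcc3, a related pump induced by phenobarbital, had a withdrawal difference of -0.54 with an adjusted p of 0.0653. In 2 of 19 fits without 1 animal it passed: without control 1028 (-0.60, adjusted p = 0.0289) or treated animal 2028 (-0.58, adjusted p = 0.0451). It also passed on wild-type arrays only (adjusted p = 0.0258), after quantile normalization (adjusted p = 0.0402) and with array weights (adjusted p = 0.00316). Without subtracting the control day difference it passed as well (-0.46, adjusted p = 0.00162).

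Oxidoreductases and hydrolases fell in 3 of 19 tested genes, with 0 rising and a median of -0.26. They were the carboxylesterase Ces2a (-0.61), the microsomal epoxide hydrolase Ephx1 (-0.53) and the retinaldehyde dehydrogenase Aldh1a1 (-0.26). The call of Ephx1 was lost without control 1022 (-0.39, adjusted p = 0.244), treated animal 2025 (-0.51, adjusted p = 0.0518) or treated animal 2027 (-0.47, adjusted p = 0.0856). For Aldh1a1 it was lost without controls 1022 (-0.24, adjusted p = 0.0898) or 1023 (-0.25, adjusted p = 0.0694), or treated animal 2025 (-0.25, adjusted p = 0.0501). Cyp1a2, an aryl hydrocarbon receptor target that metabolises caffeine, fell by 0.77 (adjusted p = 0.0186). It failed without control 1022 (-0.70, adjusted p = 0.0982) and without treated animals 2024 (-0.73, adjusted p = 0.0513), 2025 (-0.74, adjusted p = 0.0524) or 2029 (-0.72, adjusted p = 0.0537).

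The plot of both effects by gene sets the drug effect on day 91 beside what was left on day 119.

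**Figure D2:**
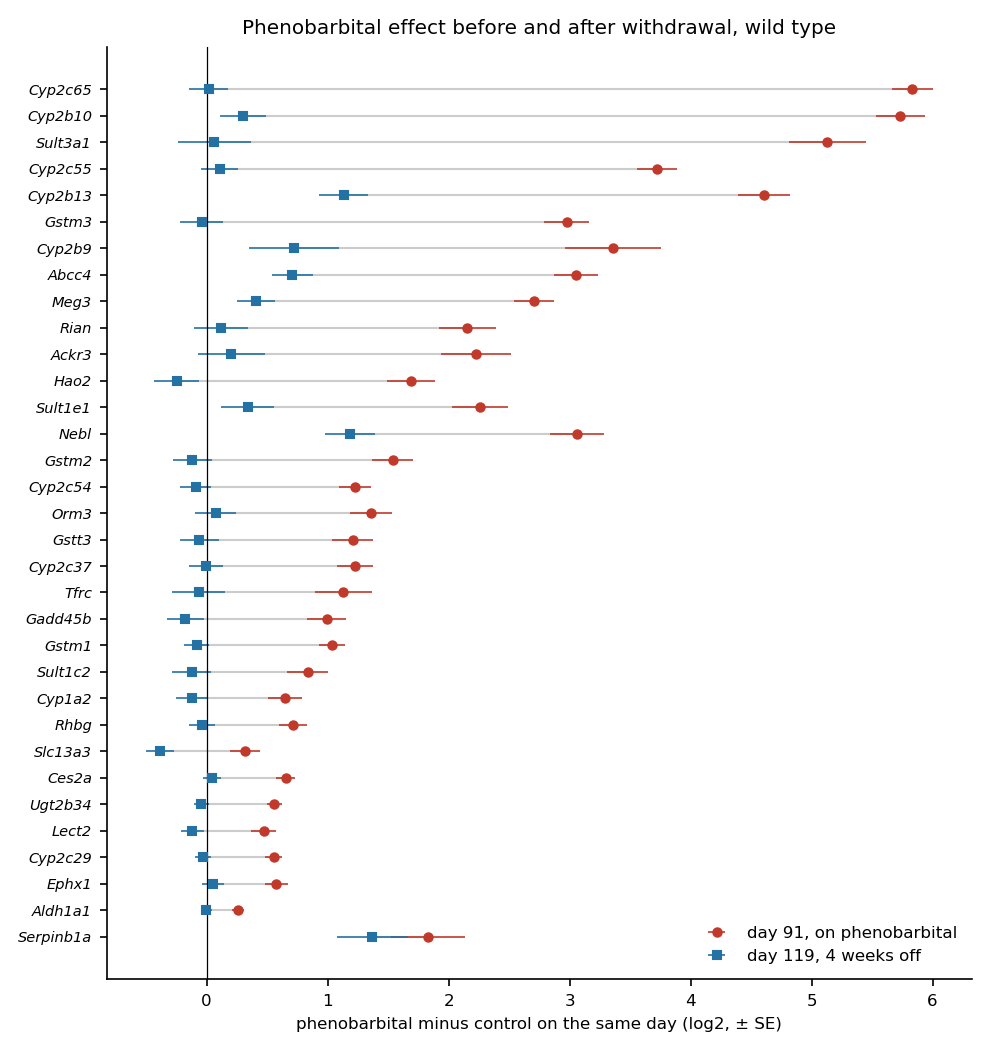
Phenobarbital effect (treated minus control on the same day, log2, horizontal axis) in wild-type liver on day 91 (circles) and day 119 (squares), with SE bars, for the named genes that fell and for Serpinb1a. Most squares lie near 0, while those of Serpinb1a (1.37), Nebl (1.19) and Cyp2b13 (1.13) lie to the right.

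Meg3 and Rian, long noncoding RNAs expressed from the maternal copy of the imprinted Dlk1-Dio3 domain on chromosome 12, both fell. Meg3 read 9.15, 9.67, 9.37, 10.79 and 10.26 on drug and 7.23, 7.23, 7.37, 7.26 and 7.75 after withdrawal, against 6.67, 7.07, 6.99, 7.16 and 6.92 in the controls of day 119. Every animal off drug was just above every control of that day and well below every animal on drug. Controls 1021 (7.33) and 1022 (7.26) of day 91 were above the lowest animals off drug. Meg3 fell by 2.30 ± 0.23 (SE), limma adjusted p = 6.56e-15, and its day 119 effect was 0.41 (95% interval 0.10 to 0.72, adjusted p = 0.973). Its probe sets differed in size, with withdrawal differences between -2.42 and -0.20.

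Rian read 5.91, 6.24, 5.32, 6.12 and 5.75 on drug and 3.92, 3.65, 3.95, 4.04 and 4.18 afterwards, against 3.95, 3.87, 3.57, 3.88 and 3.87 in day 119 controls. Off drug the groups overlapped, all below the array medians, which Rian exceeded on 19 of 167 arrays. Rian fell by 2.04 ± 0.32 (SE), limma adjusted p = 2.77e-06. Mirg, the third gene of the domain that could be tested, had a withdrawal difference of -0.27 with an adjusted p of 0.423. None of 14 other imprinted genes passed the limma test (0 also at an unadjusted p under 0.05).

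Female-biased liver genes, those normally higher in females, fell in 5 of 16 tested cases, against 0.523% of all tested genes, and 0 rose, with a median of -0.35. They were Sult3a1, Cyp2b13, Cyp2b9, Hao2 and the organic anion transporter Slc22a26 (-0.79). Sult3a1, Cyp2b13 and Cyp2b9 were already counted above among the drug metabolism genes, so this list is not a separate result for them. Hao2, a peroxisomal hydroxyacid oxidase, read 6.55, 6.37, 6.80, 5.13 and 5.24 on drug and 4.22, 4.01, 4.34, 4.73 and 4.59 after withdrawal. Controls of day 119 spanned 4.28 to 5.03. Hao2 exceeded the array median on 10 of 167 arrays. The animals off drug overlapped with these controls, and Hao2 fell by 1.93 ± 0.27 (SE), adjusted p = 7.32e-08. Of 17 male-biased genes, 0 passed the limma test (4 at an unadjusted p under 0.05, 3 of them higher). All mice here were male.

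Gadd45b, a stress-induced gene that CAR activates early in liver growth, was the only one of 20 genes of G1 and growth control to fall. It read 6.07, 7.13, 6.33, 6.83 and 6.48 on drug and 5.40, 5.57, 5.56, 5.43 and 5.70 afterwards, with day 119 controls at 5.79, 5.68, 5.54, 5.67 and 5.86. Off drug the groups overlapped, with 2 of the 5 formerly treated animals below the lowest control, and Gadd45b fell by 1.17 ± 0.22 (SE), limma adjusted p = 0.000235. Proliferation genes gave no call. Of 26 S phase genes 0 passed (5 lower at an unadjusted p under 0.05), with a median of -0.16 and a day 91 median effect of 0.06. Of 15 genes of G2 and mitosis 0 passed (1 lower at an unadjusted p under 0.05), with a median of -0.19. Mcm5, a subunit of the replicative helicase, had a difference of -0.41 with a 95% interval from -1.01 to 0.19. Mki67, encoding the proliferation antigen Ki-67, had -0.08 (95% interval -0.66 to 0.51), and the cyclin gene Ccnd1 had -0.25 (95% interval -0.77 to 0.26). The mean level of the S phase list spanned 6.77 to 6.98 in mice on drug and 6.61 to 6.71 after withdrawal, against 6.77 to 6.82 and 6.71 to 6.81 in the matching controls.

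Among 17 Wnt-driven and perivenous genes, those of hepatocytes around the central vein, 3 fell and 0 rose, with a median of 0.01. The ammonium transporter Rhbg fell by 0.76, the dicarboxylate transporter Slc13a3 by 0.70 and the secreted hepatokine Lect2 by 0.59. Lect2 lost its call without control 1022 (-0.53, adjusted p = 0.0805), and Slc13a3 lost it in 5 of 19 fits without 1 animal, with an adjusted p up to 0.115. The Wnt target Axin2 (0.21, adjusted p = 0.691) and the perivenous glutamine synthetase gene Glul (0.07, adjusted p = 0.827) did not pass. None of 10 periportal genes passed either (0 at an unadjusted p under 0.05).

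Of 11 iron genes 1 fell (median 0.09), and of 23 acute phase genes 1 fell (median 0.03), with 0 rising in either list, against 0.523% falling among all tested genes. At an unadjusted p under 0.05 the acute phase list had 3 lower and 5 higher. Tfrc, the transferrin receptor, fell by 1.20 (adjusted p = 0.042), but this call was lost in 10 of 19 fits without 1 animal, with an adjusted p up to 0.142. Orm3, an acute phase glycoprotein, fell by 1.28 ± 0.24 (SE), adjusted p = 0.000235. It read 7.20 to 7.75 on drug and 6.01 to 6.53 afterwards, with controls at 5.64 to 6.59, so that the groups off drug overlapped. Ackr3, a scavenging receptor for the chemokine CXCL12 that belongs to none of the lists, fell by 2.02 ± 0.40 (SE), adjusted p = 0.000618. Its values were 5.82, 7.34, 6.29, 6.76 and 7.23 on drug and 4.31, 4.80, 4.65, 4.60 and 5.33 afterwards, with no overlap.

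The lists of cholesterol synthesis (20 genes), lipogenesis (20), fatty acid oxidation by PPAR alpha (22), bile acid synthesis (17), haem synthesis (10) and the clock (18) had 0 calls in limma. At an unadjusted p under 0.05 the first had 0, the lipogenesis and fatty acid lists 1 each (both higher), the bile acid list 1 (lower), and the last of these lists 0, as did haem synthesis. Alas1, the rate-limiting enzyme of haem synthesis, varied widely within every group. It read 10.44 to 11.53 on drug and 9.28 to 10.40 after withdrawal, and its withdrawal difference was -0.74 with a 95% interval from -2.34 to 0.85. Cyp7a1, which catalyses the first and limiting step from cholesterol to bile acids, had 0.14 (95% interval -0.996 to 1.27). Neither receptor gene passed: Nr1i3 had a difference of 0.26 (95% interval -0.06 to 0.58) and Nr1i2 of -0.0044 (95% interval -0.35 to 0.34). Among 16 genes of CAR, PXR and their partners, 0 passed (0 at an unadjusted p under 0.05). Interferon response genes had a median of -0.37 over 14 genes, with 0 calls (4 lower at an unadjusted p under 0.05).

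**Figure D3:**
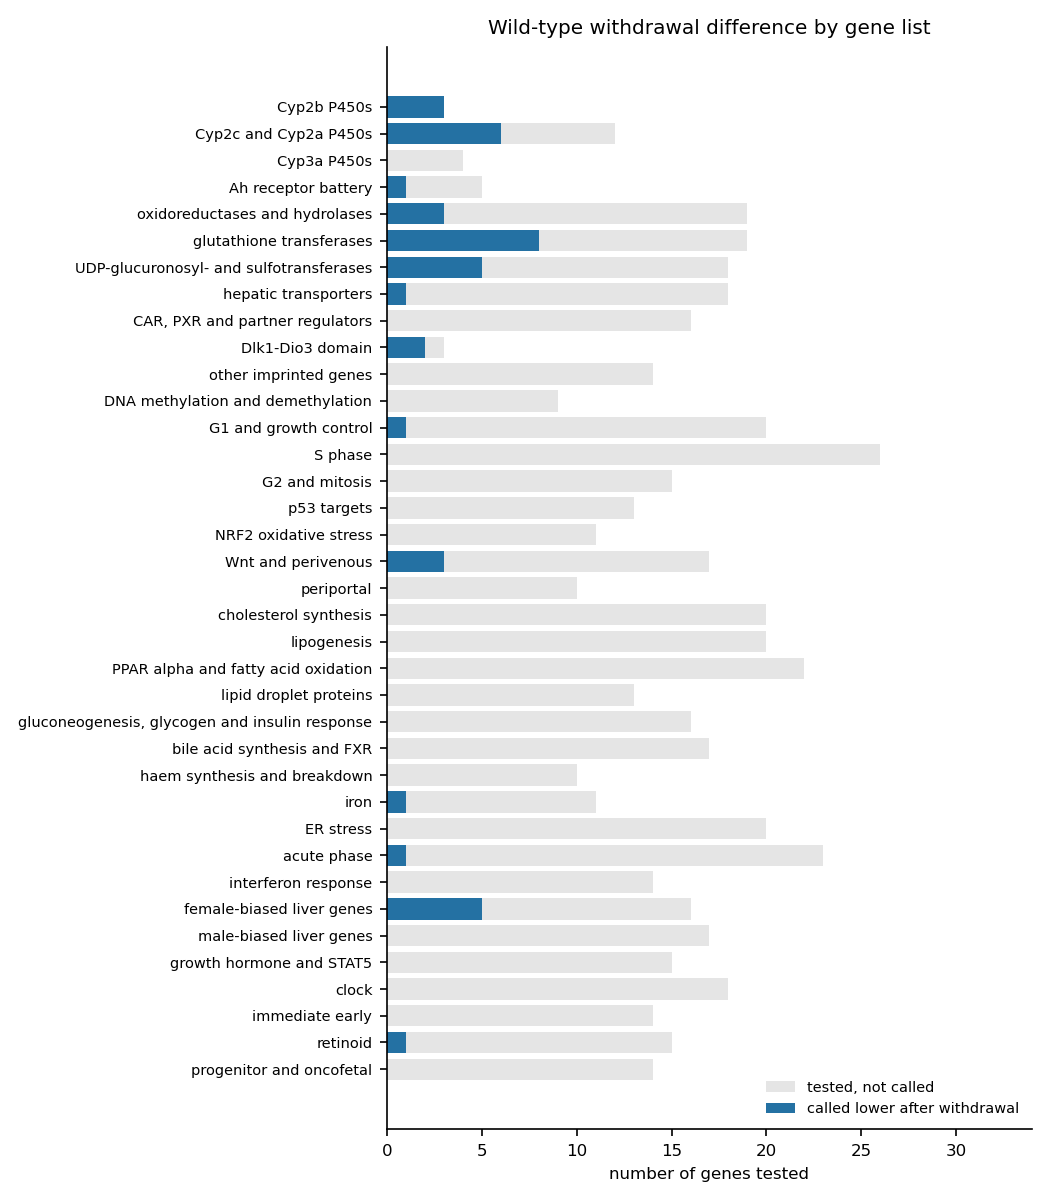
Number of genes tested (whole bar) and number that fell after withdrawal (dark part) in each gene list other than the cell type markers, wild type. The Cyp2b list, with 3 of 3, has the highest share of falls, and no gene of these lists rose.

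Whether genes that respond early to phenobarbital lose the response was counted in animals whose values did not enter the effect that chose the genes. Choice of probe set, the filter on weak genes and the variance estimate did use all groups, these animals included. The responder set holds 41 genes raised at least 2-fold, with a limma adjusted p under 0.05, in the mean effect of days 1, 7, 14 and 28 (19 treated and 18 control wild-type mice), where 27.9% of all tested genes passed at any size. Of the 41, 25 fell after withdrawal (61%), against 0.523% of all tested genes, and 0 rose. Estimates were below 0 in 40 of the 41. The exception, Gadd45a, a stress gene related to Gadd45b, had 0.26 with an adjusted p of 0.886. In 34 of the 41, every treated animal of day 119 lay below every treated animal of day 91, against 2.57% of all tested genes.

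The median effect of the 41 responders was 1.40 over days 1 to 28, 1.31 on day 91 and 0.07 on day 119. On day 91, 31 of the 41 were still significantly higher in treated mice, against 1.45% of all tested genes (2.13% changed in either direction). On day 119 this held for 2 of the 41, Nebl and Cyp2b13, against 0.0238% of all tested genes. In 33 of the 41 the day 119 effect was within 0.5 of 0. Every treated animal was above every control in 33 of 41 on day 91 and in 4 of 41 on day 119, against 2.69% and 0.697% of all tested genes. Those 4 were Nebl, Cyp2b13, Abcc4 and Meg3. Over the 41 genes the day difference of the control mice spanned -0.28 to 0.61. In that comparison 0 of 12622 genes passed, and 1138 had an unadjusted p under 0.05.

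Of the 16 responders that did not pass, several had wide intervals. Ndrg1, a stress-responsive gene named here after its values were seen, had -1.28 ± 0.36 (SE) with an adjusted p of 0.0743. Sqle, the squalene epoxidase of cholesterol synthesis, had -0.43 ± 0.47 (SE) after a day 91 effect of 0.46. With the responder threshold at 1.5-fold the set held 111 genes, of which 49 fell (44.1%). At 4-fold it held 10, all of which fell. Under a stricter filter on weak probe sets 24 of the 41 could be tested, and 13 of them fell.

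**Figure D4:**
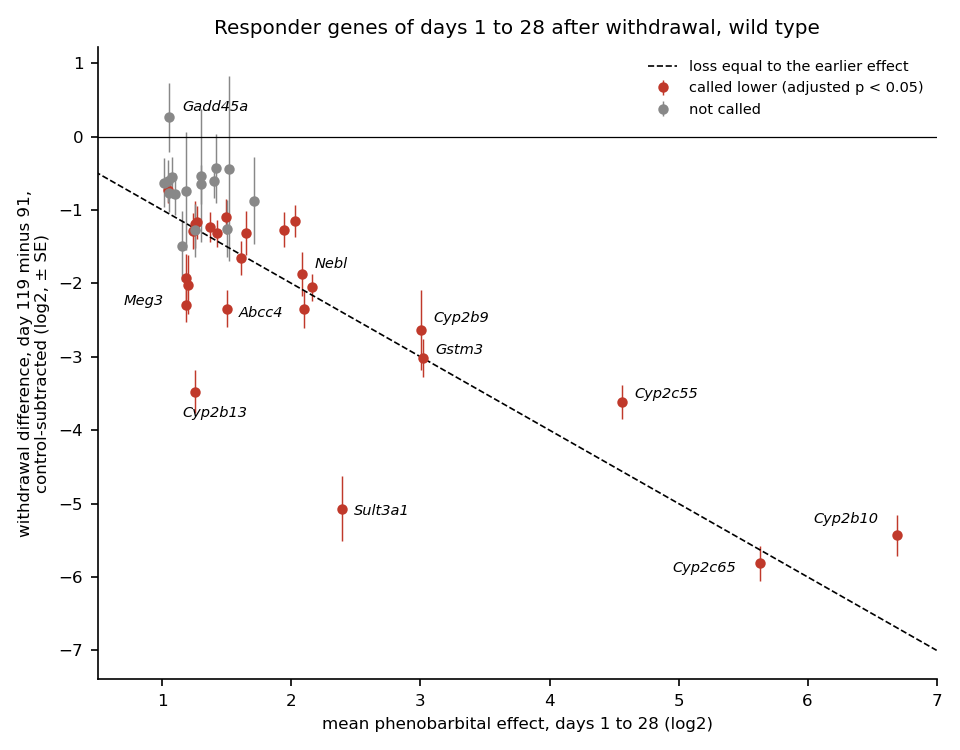
Mean phenobarbital effect on days 1 to 28 (log2, horizontal axis) against the withdrawal difference (log2 with SE bars, vertical axis) for the 41 responder genes of wild-type liver, with the 25 that fell in red. The dashed line marks a loss equal to the earlier effect. Sult3a1 and Cyp2b13 lie far below the line, Cyp2b10 above it and Gadd45a above 0.

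Some responders had a larger effect on day 91 than over days 1 to 28, a difference that was not tested. Sult3a1 had 2.39 over days 1 to 28 and 5.13 on day 91, and its day 119 effect was 0.06. Cyp2b13 had 1.26 and then 4.61, with 1.13 left. For Meg3 these values were 1.18, 2.70 and 0.41, and for Abcc4 they were 1.499, 3.05 and 0.71. Cyp2b10 ran the other way, with 6.69 and then 5.73, and 0.30 left.

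A smaller set of 7 genes had been lowered at least 2-fold over days 1 to 28, and none of them passed in the withdrawal difference. Their median was 0.67 after a day 91 median effect of -0.70 and before a day 119 median effect of -0.05. Cyp4a14, a fatty acid hydroxylase under PPAR alpha, read 9.53, 9.10, 9.46, 5.21 and 7.00 on drug and 10.48, 8.83, 11.32, 11.36 and 11.34 after withdrawal. These groups overlapped, and the difference was 1.61 with a 95% interval from -0.20 to 3.43. Csad, which makes hypotaurine on the way to taurine, rose by 1.84 within the treated arm (adjusted p = 9.45e-06), where 828 genes or 6.56% changed. Less the control change of 0.56 the difference was 1.27 (adjusted p = 0.252). Angptl4, an inhibitor of lipoprotein lipase, read 7.84 to 8.03 on drug and 8.54 to 8.83 afterwards, with no overlap. Its difference was 0.67 (adjusted p = 0.609), and 0.00698 was its adjusted p when fitted on the 4 compared groups. For Igfbp1, a binding protein of insulin-like growth factors, the treated arm rose by 1.70 (adjusted p = 0.0308) and the controls moved by 1.81, leaving -0.11.

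Day 119 effects passed the limma test in 3 genes, or 0.0238% of those tested (574 at an unadjusted p under 0.05): Serpinb1a, Nebl and Cyp2b13. Serpinb1a, an inhibitor of neutrophil proteases, read 9.77, 9.16, 9.75, 9.42 and 8.87 on drug and 9.06, 8.96, 9.30, 9.51 and 9.36 after 4 weeks without it. Controls stood at 8.01, 7.20, 7.31 and 7.75 on day 91 and at 8.16, 8.03, 7.75, 7.20 and 8.21 on day 119. Treated animals of both days overlapped each other and lay above all controls. The effect was 1.83 on day 91 and 1.37 ± 0.29 (SE) on day 119 (adjusted p = 0.0271), and the withdrawal difference of -0.46 had a 95% interval from -1.30 to 0.38. A second probe set gave 1.96, 1.45 and -0.51. The day 119 call was lost without controls 1027 (1.41, adjusted p = 0.0514), 1028 (1.34, adjusted p = 0.0997) or 1029 (1.20, adjusted p = 0.366). It was also lost without treated animals 2028 (1.35, adjusted p = 0.0649), 2029 (1.30, adjusted p = 0.152) or 2030 (1.34, adjusted p = 0.0978).

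Nebl, encoding the actin-binding protein nebulette, fell in part. It read 6.42, 7.75, 7.09, 7.58 and 8.00 on drug and 5.54, 6.00, 5.76, 5.20 and 6.10 after withdrawal, against 4.41, 5.08, 4.13, 4.30 and 4.76 in day 119 controls. All animals off drug stood between the groups, with no overlap on either side. All controls lay below the array medians, which the probe set exceeded on 42 of 167 arrays. Other probe sets of Nebl, above the median on 0 arrays, gave withdrawal differences of 0.10 and -0.12. Nebl fell by 1.87 ± 0.30 (SE), limma adjusted p = 4.99e-06, and the day 119 effect was 1.19 ± 0.21 (SE), adjusted p = 0.000748. The latter kept its call without any single animal of the 4 groups. Fitted on the 4 compared groups its adjusted p was 0.192, and without the 4 animals with high acinar markers the effect was 0.94 with an adjusted p of 0.345.

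In the withdrawal difference 18 genes rose, by 0.25 to 0.70, and many of these calls were lost when 1 animal was left out. Part of these values came from the controls: the median day difference of the 18 genes was 0.28 in treated mice and -0.15 in controls. For Sox6os it was 0.23 in treated mice and -0.45 in controls. In 10 of the 18, every treated animal of day 119 was above every treated animal of day 91, against 4.45% of all tested genes. The rises were called on these same animals, so that count only describes them. Trmt61b, a mitochondrial RNA methyltransferase and the largest rise, read 7.15, 7.18, 6.91, 6.51 and 6.92 on drug and 7.43, 7.30, 6.93, 7.37 and 7.21 afterwards. Controls read 7.28, 7.47, 7.27 and 6.99 on day 91 and 6.76, 6.99, 6.62, 6.89 and 7.08 on day 119. Treated groups overlapped, and the difference of 0.70 ± 0.18 (SE, adjusted p = 0.0291) was made of 0.31 in the treated arm and -0.38 in the controls. Without animal 2024 it was 0.59 (adjusted p = 0.153), and 10 of the 19 fits without 1 animal lost the call.

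Other rises included Sox6os (0.68), the zinc finger gene Zfp672 (0.65), the JNK scaffold gene Mapk8ip3 (0.53), the calcium channel gene Itpr2 (0.53) and the chemokine gene Ccl25 (0.51). Ccdc85b (0.50), Klhl17 (0.50), Xpnpep3 (0.47), the RNA helicase gene Dhx16 (0.39), Smim10l1 (0.39) and Ubn2 (0.38) followed. Several of these rises were smaller and not called in limma when the probe sets of a gene were averaged. Itpr2 then had 0.09 (adjusted p = 0.673) and Ccl25 0.25 (adjusted p = 0.283). Klhl17 had 0.30 (adjusted p = 0.139) and Ubn2 0.09 (adjusted p = 0.578). Ahsg, encoding the plasma protein fetuin-A, was the only hepatocyte marker of 12 to rise, by 0.31. It read 12.57, 12.51, 12.42, 12.72 and 12.44 on drug and 12.87, 12.81, 12.78, 12.79 and 12.85 afterwards, with no overlap. Of 13 named genes that rose, 12 lost their call in at least 1 of the 19 fits that left out an animal, with Smim10l1 the exception. Smim10l1 failed in other settings: its adjusted p was 0.0622 on the 4 compared groups, 0.413 with the mean of its probe sets (0.18) and 0.0932 without the 4 animals with high acinar markers. Of 32 named genes that fell, 25 kept theirs in all 19. The rise of Itpr2 was 0.34 (adjusted p = 0.307) without treated animal 2024.

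In mice with human receptors 197 genes passed in the same withdrawal difference (1.56%), and in the knockout 7 did (0.0555%). The 41 wild-type responders had a median difference of -1.36 in humanized mice, where 24 passed, and of -0.13 in the knockout, where 1 passed. The interaction with genotype was tested for each gene. Wild type differed from the knockout in 14 genes (0.111%), in all of them with the larger fall in wild type. Cyp2c65 had -5.82 in wild type against 0.02 in the knockout (difference -5.84, adjusted p = 7.25e-33), and Cyp2b10 had -5.43 against -0.17 (difference -5.26, adjusted p = 8.14e-23). Sult3a1 (-5.08), Cyp2c55 (-3.38), Cyp2b13 (-3.35), Gstm3 (-2.43), Abcc4 (-2.33), Meg3 (-2.08), Rian (-1.998), Hao2 (-1.76) and Gstm1 (-1.09) also passed in that difference. Knockout animal 4024 of day 91 was almost the same array as animal 4019, labelled day 28. Without both, wild type differed from the knockout in 14 genes as well.

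Cyp1a2 was among the 7 genes that passed in the knockout, with -0.88 there and -0.77 in wild type, and so was Cyp3a11, with -0.24 and -0.12. Wild type minus knockout did not pass for either (Cyp1a2 0.11, adjusted p = 0.999, and Cyp3a11 0.12, adjusted p = 0.999). Fewer than 7 genes passed in the knockout without animals 4019 and 4024, and whether Cyp1a2 and Cyp3a11 still did was not examined.

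Wild type and humanized mice differed in 4 genes (0.0317%), of which 2 are predicted genes. Cyp2b13 fell by 3.48 in wild type and by 1.46 in humanized mice (difference -2.02, adjusted p = 0.0238). Sult2a2, a sulfotransferase for steroids and bile acids, dropped by 4.56 in humanized mice and had -0.07 in wild type (difference 4.49, adjusted p = 7.18e-14). In wild-type livers Sult2a2 stayed between 2.94 and 3.39 in all 19 animals, below the array medians. For Cyp2b10 the difference between these genotypes was -0.41 (adjusted p = 1), and for Cyp2c65 it was -1.23 (adjusted p = 0.681).

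**Figure D5:**
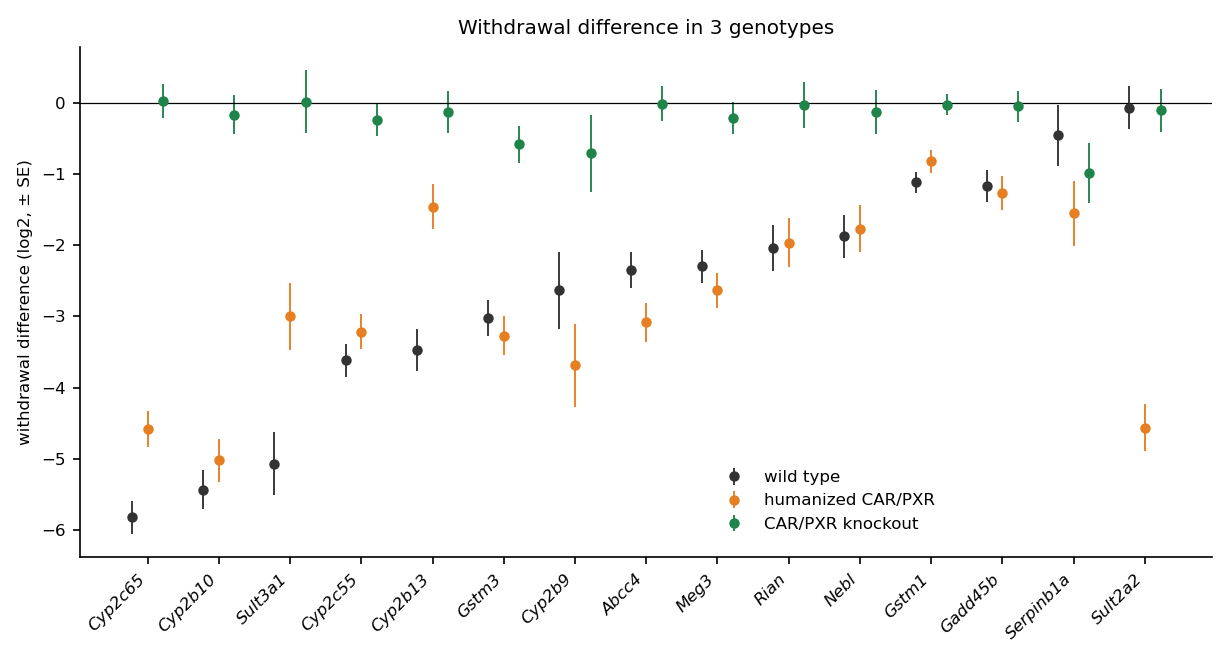
Withdrawal difference (log2 with SE bars, vertical axis) of 15 genes in wild-type, humanized CAR/PXR and CAR/PXR knockout mice. Knockout values lie between -0.99 and 0.02, and Sult2a2 stands at -4.56 in humanized mice but near 0 in the other genotypes.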

How the data were processed

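Each wild-type animal gave 1 array, and the labels name separate animals. The deposited values are log2 expression per probe set, made by the authors with RMA per the submitters' processing notes, with its version not given in the sources used here. RMA scales all arrays together, so array medians in the 4 groups spanned only 5.16 to 5.23, and it compresses differences of weak genes. Array intensities carry no read depth, and the number of animals limits the precision.

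Of 45101 probe sets, 34945 had 1 gene symbol, 932 several and 9224 none. One probe set was kept per gene (18193 genes), and the test covered the 12622 genes above the array's own median on 3 or more arrays. limma 3.58.1 in R 4.3.3 was fitted to 166 samples in 36 groups with 130 residual degrees of freedom, and p-values were Benjamini-Hochberg adjusted within each comparison. Humanized animals 6026 and 6030, almost identical arrays, were averaged as 1 sample. The calculation was tested on simulated data.

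The named genes are a fixed list of reporters, the 12 largest falls and rises, up to 4 changed members of each list, up to 6 responders of each kind, up to 6 responders changed on day 119, and the 5 largest genotype differences each way. Predicted genes were counted and not named. The members and gene lists were chosen with earlier results of these data known. Alternatives covered the arrays fitted, the filter, normalization, probe sets, variance prior, array weights, the control day difference, the responder threshold and each animal left out. A pair on acinar RNA was added after seeing the data.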

Additional observations from a re-analysis of the deposited data

Results flagged for a closer look

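In 272 checks of single animals within groups of 4 or 5, 18 values in 17 genes lay far from the rest of their group, where chance gives about 1 in 20. Among P450 genes, Cyp2b9 was low in control 1028 (5.72) and high in treated animal 2029 (8.71), both of day 119. Cyp2c29 was low in animal 2025 (13.84) and Cyp2c37 in animal 2023 (12.83), both on drug. Conjugation and transport genes gave low Gstm1 in control 1022 (12.06), high Sult1c2 in control 1027 (6.90), low Abcc3 in animal 2027 (9.78) and low Rhbg in animal 2021 (7.47). Meg3 was high in animal 2030 (7.75) and Rian low in control 1028 (3.57). Of the remaining values, Top2a was low in 2026 (4.54), Glul low in 2030 (12.14), Tfrc low in 2028 (8.47) and Prom1 high in control 1027 (6.67). Nr1i2 was low in control 1022 (6.91), Ackr3 low in control 1026 (4.07), and both Itpr2 (6.26) and Pde5a (4.18) were low in animal 2024.

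The withdrawal difference of 13 named entries differed between genotypes in the limma interaction test. Against humanized mice these were Cyp2b13 (-2.02) and Sult2a2 (4.49). Against the knockout they were Cyp2c65 (-5.84), Cyp2b10 (-5.26), Sult3a1 (-5.08), Cyp2c55 (-3.38), Cyp2b13 (-3.35), Gstm3 (-2.43), Abcc4 (-2.33), Meg3 (-2.08), Rian (-2.0), Hao2 (-1.76) and Gstm1 (-1.09).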

How the results depend on the processing

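No paired analysis was possible because no animal number is shared between the groups compared. The count of 84 changed genes (66 lower, 18 higher) became 194 with array weights (127 lower, 67 higher, all 84 shared) and 828 without subtracting the control day difference (309 lower, 519 higher). It was 45 without the 4 animals with high acinar markers (42 lower, 3 higher). A stricter filter on weak genes, with 8698 genes tested, left 43 lower, and averaging probe sets left 11 higher. Leaving out 1 animal gave 55 to 101 changed genes, 49 to 76 lower and 5 to 26 higher. The higher count was 7 without control 1021, 6 without 1022, 7 without 1023, 6 without 1029, 11 without 1026 and 11 without 1030. It was 9 without treated animal 2024, 7 without 2025 and 5 without 2026. Responder genes that fell numbered 22 to 25 in those fits, 13 under the stricter filter (24 tested), 49 with a 1.5-fold and 10 with a 4-fold responder threshold. The 3 calls of day 119 became 0 under the stricter filter, 7 with array weights, 0 without the 4 animals, and 1 to 4 without 1 animal (1 without 2029). Under the stricter filter Nebl and Cyp2b13 were too weak to be tested, and Serpinb1a had a limma adjusted p of 0.0562. Knockout calls became 11 after quantile normalization and 2 without animals 4019 and 4024. Igfbp1 went from -0.11 to 1.70 without subtracting the controls. A fit on the 4 groups alone gave 98 changed genes, 61 shared. Of 45 named changed genes, 24 kept their call wherever they were tested, 15 of them in all 30 alternatives and 9 in 28 or 29. The causes were not tested.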

Other observations

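The genes below belong to the 66 that fell but lay outside the naming rule, and were chosen after their values were seen. Slc22a29, Slc22a27 and Slc22a26, related genes of the organic anion transporter family, fell by 1.24 ± 0.29, 1.10 ± 0.26 and 0.79 ± 0.16 (SE). Their limma adjusted p-values were 0.00971, 0.01 and 0.00145. The potassium channel gene Kcnk1 fell by 1.32 ± 0.30 (SE), from a day 91 effect of 1.31 to -0.01 on day 119. Cnmd, encoding chondromodulin, fell by 1.15 ± 0.22 (SE), the Wnt-induced matricellular gene Ccn4 by 1.09 ± 0.24 (SE) and the carboxypeptidase gene Cpe by 1.05 ± 0.25 (SE). Fam171a1 fell by 1.09 ± 0.17 (SE) in wild type, with -0.05 in humanized mice and -0.18 in the knockout, but the limma test of the difference from wild type did not pass for either (adjusted p = 0.0799 and 0.106).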
